A study of Mus musculus with 8 samples.

Results

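The Hox cluster genes are the members described here, taken as every probe set whose only annotated symbol is Hoxa, Hoxb, Hoxc or Hoxd followed by a number. The rule found 48 of the 45101 probe sets on the array, which cover 33 of the 39 Hox genes in the RefSeq gene table and 33 of 18193 named genes. The other Hox genes of that table were not analysed here, and 3 probe sets that carry several Hox symbols were not used. By cluster the members are 9 genes of Hox A, 9 of Hox B, 7 of Hox C and 8 of Hox D, and 11 genes have more than 1 probe set.

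The arrays compare LB-22 cells, immortalized cells of the embryonic mouse kidney, transfected with siRNA against WT1 (Wt1 siRNA, 4 arrays) or with scramble Control siRNA (control siRNA, 4 arrays), and ask which transcripts differ when Wt1, a zinc finger transcription factor of kidney development, is lowered. In both groups the cells had been expanded at 33 °C with serum, prostaglandin E1, basic FGF, hydrocortisone, triiodothyronine, insulin, transferrin and 10 U/ml interferon gamma. At transfection with Lipofectamine 2000 they were moved to 37 °C without interferon, were exposed to 25 pmol of siRNA for 6 h, and total RNA was taken at 48 h for Affymetrix Mouse 430_2 arrays. The labels give 1 cell line and 1 siRNA name per group, and separate cultures are not stated for the replicates. The p-values therefore speak only of the spread among these 8 samples, and that spread may be technical. In such bulk RNA, fewer cells with a transcript and less of it per cell cannot be told apart.

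Hox genes encode homeodomain transcription factors that give cells along the body axis, the limbs and the urogenital tract a positional identity. They lie in 4 clusters, and genes with the same number in different clusters are paralogues from duplicated ancestral clusters, low numbers being expressed toward the head and high numbers toward the tail. In the embryonic kidney, paralogues of group 11 act in the mesenchyme that forms nephrons, and paralogues of group 10 act in the stroma. Hox proteins bind DNA together with cofactors of the TALE class such as Pbx and Meis, and Polycomb and trithorax proteins keep the clusters silent or active.

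The promoters of the Hox genes that rose are shown as a description. These genes were picked by their calls in this comparison, and shared regulation was not tested. RefSeq promoter windows (build GRCm38.p6, 250 bases before to 50 after the start) were at hand for 19 of the 33 genes, in 21 windows, and for 4 of the 5 genes that rose: Hoxa9, Hoxa10, Hoxd8 and Hoxd9. The 250 bases before each annotated start are printed 5′ to 3′ on the strand of the gene, with capitals for matches to GGGCGG (a GC box) or TATAAA on either strand.
Hoxa10, chr6:52234940-52235189, minus strand: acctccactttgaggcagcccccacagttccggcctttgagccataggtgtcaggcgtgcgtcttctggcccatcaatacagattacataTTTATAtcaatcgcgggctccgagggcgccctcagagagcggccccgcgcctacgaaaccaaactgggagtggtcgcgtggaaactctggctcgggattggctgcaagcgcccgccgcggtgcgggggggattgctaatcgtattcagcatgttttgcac
Hoxa10, chr6:52240855-52241104, minus strand: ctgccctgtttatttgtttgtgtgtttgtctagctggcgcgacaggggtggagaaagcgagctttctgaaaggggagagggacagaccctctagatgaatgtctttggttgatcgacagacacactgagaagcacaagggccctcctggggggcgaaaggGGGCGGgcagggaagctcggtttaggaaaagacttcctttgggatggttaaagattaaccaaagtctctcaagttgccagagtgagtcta
Hoxa9, chr6:52227371-52227620, minus strand: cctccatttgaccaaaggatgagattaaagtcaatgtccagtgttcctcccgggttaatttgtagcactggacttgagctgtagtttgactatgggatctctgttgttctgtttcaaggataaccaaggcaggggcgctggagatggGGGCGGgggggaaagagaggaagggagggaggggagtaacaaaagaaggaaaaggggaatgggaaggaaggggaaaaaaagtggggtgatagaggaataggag
Hoxd8, chr2:74704365-74704614, plus strand: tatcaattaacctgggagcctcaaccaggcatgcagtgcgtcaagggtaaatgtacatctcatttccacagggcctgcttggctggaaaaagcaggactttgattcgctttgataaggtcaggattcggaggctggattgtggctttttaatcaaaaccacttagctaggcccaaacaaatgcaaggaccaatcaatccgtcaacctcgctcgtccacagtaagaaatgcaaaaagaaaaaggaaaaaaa
Hoxd9, chr2:74697513-74697762, plus strand: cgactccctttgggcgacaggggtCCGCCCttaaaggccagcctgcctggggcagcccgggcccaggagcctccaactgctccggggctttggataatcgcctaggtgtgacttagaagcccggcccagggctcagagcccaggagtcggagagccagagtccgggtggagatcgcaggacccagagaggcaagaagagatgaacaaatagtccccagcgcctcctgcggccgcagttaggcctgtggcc
Motifs of the kind bound by WT1 without its KTS insert and by EGR1 were searched on both strands: GCGGGGGCG, which 2.91% of all 32851 RefSeq promoter windows hold, GCGTGGGAG, which 0.472% hold, and GCGTGGGCG, which 0.612% hold. None of the 21 Hox windows held any of these letters. The motifs added after the Hox values had been seen were GGGCGG, in 8 of the 21 Hox windows and 35.7% of all windows, TATAAA, in 2 Hox windows and 13.6% of all, and the Hox-Pbx type motif TGATTNAT, in the windows of Hoxa2 and Hoxd11 and 3.22% of all. In the printed stretches the GC box stands once in Hoxa9, once before the upstream start of Hoxa10 and on the opposite strand in Hoxd9. TATAAA stands on the opposite strand before the other Hoxa10 start, at positions -160 to -155, and Hoxd8 holds neither. The Hox windows had a median GC content of 58.0% and a median of 15 CG dinucleotides, against 52.7% and 7 in all windows. A match is a description of the letters and not of a bound site.

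Wt1 itself, the target of the siRNA, fell from 7787 ± 607 to 1610 ± 251 (signal, mean ± SD, n = 4 each), which is 20.5% of the control and a log2 difference of -2.28 ± 0.11 (SE of the fit; limma with Benjamini-Hochberg adjustment, adjusted p = 5.91e-08). Wt1 was read by a probe set with the suffix _s_at, which marks possible matches to several transcripts. All arrays had been scaled to the same trimmed mean, and their median signals ran from 279.1 to 346.1. Of the kidney mesenchyme markers, 4 of the 9 on the array were above background on every control array (Wt1, Osr1, Six2 and Eya1), while Sall1, Cited1, Gdnf, Itga8 and Meox1 were under it on all 8 arrays. The stromal markers Tbx18, Col1a1 and Col3a1 fell, 3 of the 3 tested of 7 on the array, and the summed signal of the 7 ran from 51695.4 to 58351 on control arrays and from 31157.7 to 38178.5 on Wt1 siRNA arrays, with Foxd1 under background on all of them. Both tested podocyte markers fell, Podxl (-1.31, log2 difference) and Synpo (-1.44). Untested Nphs1 differed by 0.24 and Ptpro by -0.51, both with overlapping groups. The 4 on the array summed to 3152.1 to 6050.2 on control arrays and 1475.7 to 2098.1 on Wt1 siRNA arrays. In the ureteric bud list Krt8 rose (0.55) and Gata3 fell (-0.64), 2 tested of 7 on the array. The largest differences of its untested members were Cdh1 at 0.95, without overlap, and Wnt11 at -1.23, with overlap. Summed signals were 3416.6 to 4600.8 on control arrays and 4249.9 to 5564 on Wt1 siRNA arrays. In the neural list Ncam1 fell (-0.56) and Tubb3 did not pass, 2 tested of 5, with sums of 5338 to 6210.6 and 4257.5 to 5257.4. Endothelial Pecam1 and Tek were under background on every array, while Kdr, 1 tested of 5, fell (-0.45), with sums of 2071.7 to 2890.3 and 1696.6 to 2043.2. Leukocyte Ptprc and Itgam were under background on every array, while Cd68 rose (0.99) and Csf1r fell (-0.76), 2 tested of 5. Untested Adgre1 differed by -0.92 without overlap of the groups. The leukocyte sums were 2951.1 to 3670.7 and 3316.5 to 3573.2. Muscle Myog and Myh3 were under background on every array, and Myod1 was above it on every control array, with none of the 4 tested and sums of 484 to 666.3 and 377.4 to 560.4. The sums are led by their brightest members, such as Col1a1 and Col3a1 in the stromal list (control means 24014 and 28573). They do not measure the share of a cell type. Over all tested genes 37.3% passed, 18.8% higher and 18.5% lower. The part of any of these markers in the Hox differences was not tested.

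The signals of the Hox genes in LB-22 cells were set beside a background level. A signal counts here as above background when it exceeds 227.2, the highest signal of the 27 probe sets for Bacillus subtilis control transcripts on any array. Each gene is read by its brightest probe set. On this measure 20 of the 33 genes were above background on all 8 arrays, 4 were under it on all of them, and 9 were above it on some. All 7 measured Hox C genes were above it on every control array, as were 5 of 9 in Hox A, 5 of 9 in Hox B and 3 of 8 in Hox D. Signals of different probe sets depend on their probes, so the levels of different genes are not ranked against each other. The background level lies under the median signal of every array (279.1 to 346.1), so most probe sets exceed it. The share of all genes above it was not determined, so these counts do not set Hox genes apart.

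**Figure D1:**
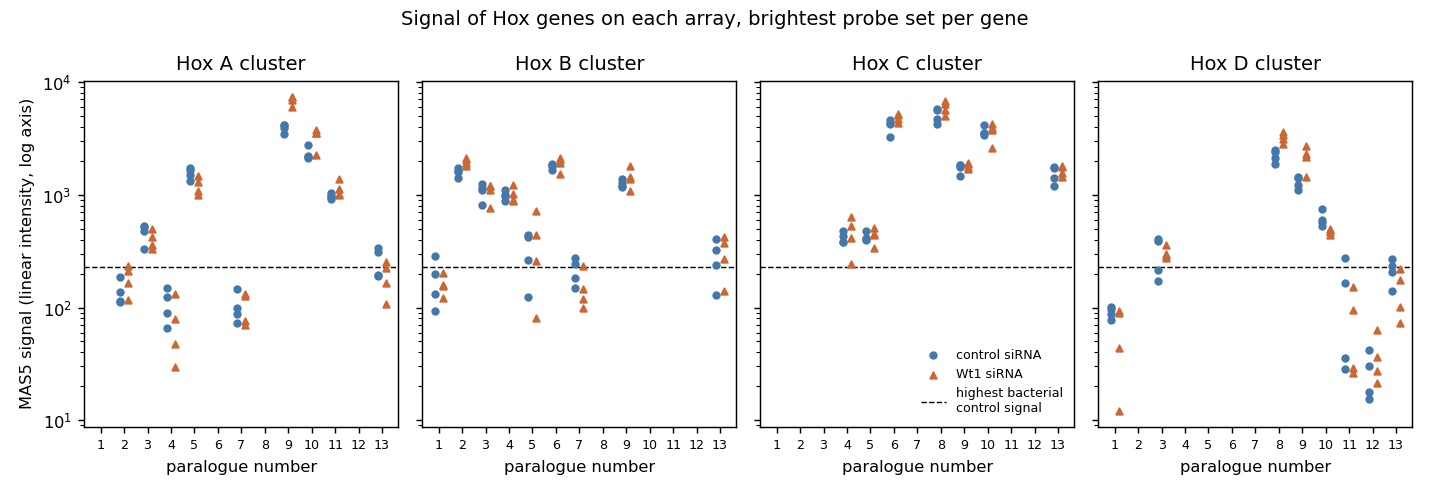
MAS5 signal (linear intensity on a log axis) of the brightest probe set of each of the 33 Hox genes, by cluster and paralogue number, with a point for each of the 4 control siRNA and 4 Wt1 siRNA arrays. The dashed line is the highest signal of the Bacillus subtilis control probe sets, 227.2. All Hox C genes measured lie above the line, while Hoxa4, Hoxa7, Hoxd1 and Hoxd12 lie under it on all 8 arrays.

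The genes under background on all 8 arrays were Hoxa4 and Hoxa7, which pattern the neck and trunk, and Hoxd1 and Hoxd12, with signals of 12.1 to 148.2. The 9 genes above it on some arrays were the hindbrain and pharyngeal arch genes Hoxa2 and Hoxb1, the trunk genes Hoxb5 and Hoxb7, Hoxd3, the kidney and forearm gene Hoxd11, and the group 13 genes Hoxa13, Hoxb13 and Hoxd13, which act in digits, genitalia, prostate or tail. Their signals ran from 26.5 to 717.9. A group difference of these 13 genes is not read here, since 1 or both groups lie in part or in whole under the background.

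The difference between groups was tested for the genes in the brighter share (0.5) of all 18193 named genes by mean signal over both groups, 9096 genes, which leaves 16 of the 33 Hox genes: 4 of Hox A, 5 of Hox B, 5 of Hox C and 2 of Hox D. The dimmest Hox gene inside this filter was Hoxb4 with a mean signal of 991, and the brightest outside it was Hoxd10 with 536. Of the 16 Hox genes, 5 rose (Hoxa9, Hoxa10, Hoxb2, Hoxd8 and Hoxd9), 0 fell and 11 did not pass the test (limma, Benjamini-Hochberg over 9096 genes, threshold 0.05). Over all tested genes 37.3% passed, 18.8% higher and 18.5% lower. The Hox share of 31.2%, all higher, lies under the share of calls in either direction and over the share of higher calls, and the difference was not tested. At an unadjusted p under 0.05, 6 Hox genes were higher and 1, Hoxa5, was lower, where 24.4% of all tested genes were higher and 22.8% lower. The median log2 difference of the 16 was 0.18, beside 0.016 over all tested genes, and 13 of the 16 differences were above 0, as were 52.4% of those of all tested genes. With each array centred on its median, which is another scaling, those medians were 0.29 and 0.12, the split over all genes went from 1708 higher and 1687 lower to 1584 higher and 785 lower, and the 5 Hox genes still passed.

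**Figure D2:**
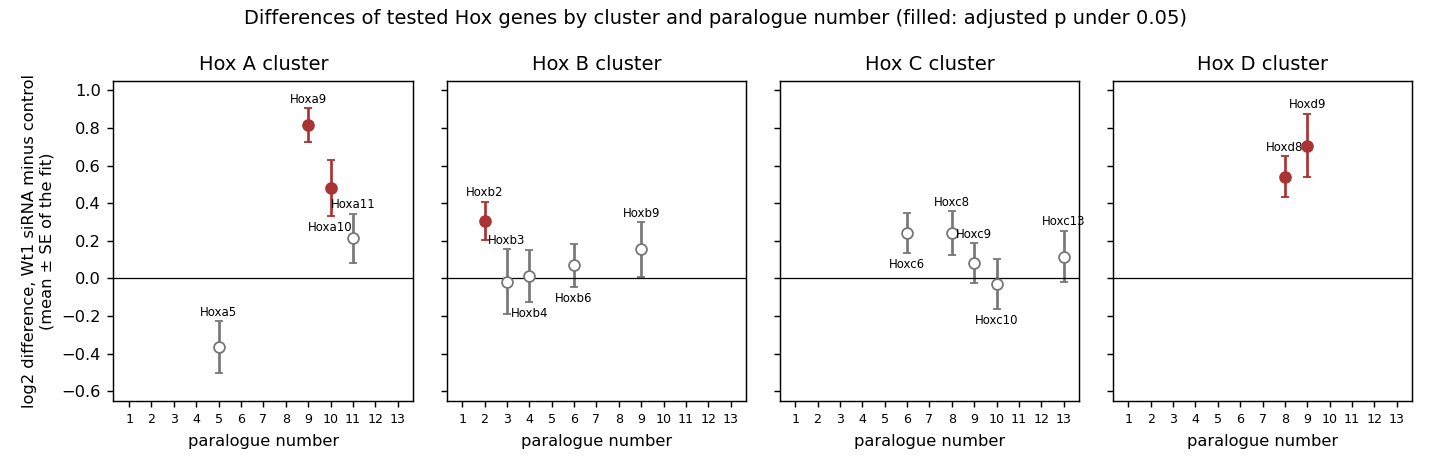
Log2 difference (Wt1 siRNA minus control siRNA) of the 16 tested Hox genes by cluster and paralogue number, with the SE of the fit as bars; filled points passed the adjusted threshold of 0.05. Hoxa9, Hoxa10, Hoxd8 and Hoxd9 carry numbers 8 to 10 and stand at 0.48 to 0.81, Hoxb2 stands at 0.31, and the Hox C genes lie between -0.031 and 0.24.

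Hoxa9, a gene of the trunk, the forelimb and blood progenitors, rose in the Hox A cluster. Control arrays 1 to 4 read 3429.5, 3876.8, 4112.6 and 4191.5, and Wt1 siRNA arrays 1 to 4 read 6863.2, 7277.6, 7386.4 and 5942.9. Every Wt1 siRNA array was above every control array. The mean rose from 3903 ± 343 to 6868 ± 656 (SD, n = 4 each), a log2 difference of 0.81 ± 0.09 (SE) or 1.76-fold (limma adjusted p = 1.76e-05), and it passed in all 20 alternatives with differences of 0.62 to 0.92. A dimmer Hoxa9 probe set went the same way, from 1429 ± 240 to 1906 ± 183 (log2 difference 0.43 ± 0.14), again without overlap of the groups, but did not pass when all 45037 probe sets were tested (limma adjusted p = 0.0736).

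Hoxa10, the neighbour of Hoxa9 on chromosome 6 and a gene of the lumbar trunk, the kidney stroma and the uterus, had signals of 2219.7, 2121.5, 2757.6 and 2139.6 on control arrays and 3525.2, 3744.5, 3539.2 and 2250.8 on Wt1 siRNA arrays, given here and for the genes that follow in the order of arrays 1 to 4. Wt1 siRNA array 4 lay among the controls and the other 3 lay above them all, so the groups overlapped. The log2 difference was 0.48 ± 0.15 (1.39-fold, limma adjusted p = 0.0219). Its call was lost without control array 2 or 4 or Wt1 siRNA array 1, 2 or 3, at limma adjusted p-values of 0.0574 to 0.0701, and with the mean over both Hoxa10 probe sets (0.58, adjusted p = 0.124), the other of which was under background on all arrays. Hoxa11, next to Hoxa10 and a gene of the kidney mesenchyme, went from 971 ± 43.7 to 1134 ± 178 and did not pass (log2 difference 0.21 ± 0.13, limma adjusted p = 0.211).

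Hoxa5, a gene of lung and neck development, had signals of 1642.1, 1724.9, 1320.5 and 1483.7 on control arrays and 1456.4, 1003.8, 1070.5 and 1284.3 on Wt1 siRNA arrays. The Wt1 siRNA arrays were mostly the lower ones, but the groups overlapped, and the difference of -0.37 ± 0.14 missed the threshold (limma adjusted p = 0.0519). It passed in 6 of 19 alternatives, among them without control array 3 or Wt1 siRNA array 1 or 4 (adjusted p = 0.0239 to 0.0474), while a dimmer Hoxa5 probe set differed by -0.11 ± 0.15. The brighter one has the suffix _x_at, given to probe sets that may share sequence with other genes.

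Hoxd8 and Hoxd9 rose in the Hox D cluster, where they are neighbours on chromosome 2. Hoxd8, a trunk gene, had signals of 2385.7, 2503.7, 2111.4 and 1886.7 on control arrays and 3584.5, 3126.6, 2822.8 and 3369.7 on Wt1 siRNA arrays, with no overlap. Its log2 difference was 0.54 ± 0.11 (1.45-fold, limma adjusted p = 0.00171), and it passed in 19 of 19 alternatives with differences of 0.47 to 0.65. The other Hoxd8 probe set, whose suffix _s_at marks possible matches to several transcripts, rose as well, from 1281 ± 118 to 1948 ± 101 (0.61 ± 0.10, limma adjusted p over all probe sets 0.00250). Hoxd9, a gene of the lumbar trunk and the limbs, had signals of 1433.4, 1105.8, 1403.6 and 1209.1 on control arrays and 2277.5, 2710, 2149.2 and 1436.1 on Wt1 siRNA arrays. The groups did not overlap, but Wt1 siRNA array 4 stood only just above the highest control. The log2 difference was 0.71 ± 0.17 (1.63-fold, limma adjusted p = 0.00513), and it passed in 19 of 19 alternatives with differences of 0.58 to 0.89.

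Hoxd10, the next gene after Hoxd9 and one of hindlimb motor neurons, was above background on all arrays but too dim for the filter. Its signals were 528.7, 570.8, 597.4 and 748.9 on control arrays and 499.3, 471.3, 441.9 and 484.2 on Wt1 siRNA arrays. Every Wt1 siRNA array was below every control array, the opposite side to Hoxd8 and Hoxd9. Over all 45037 probe sets its difference of -0.36 ± 0.17 did not pass (limma adjusted p = 0.252).

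**Figure D3:**
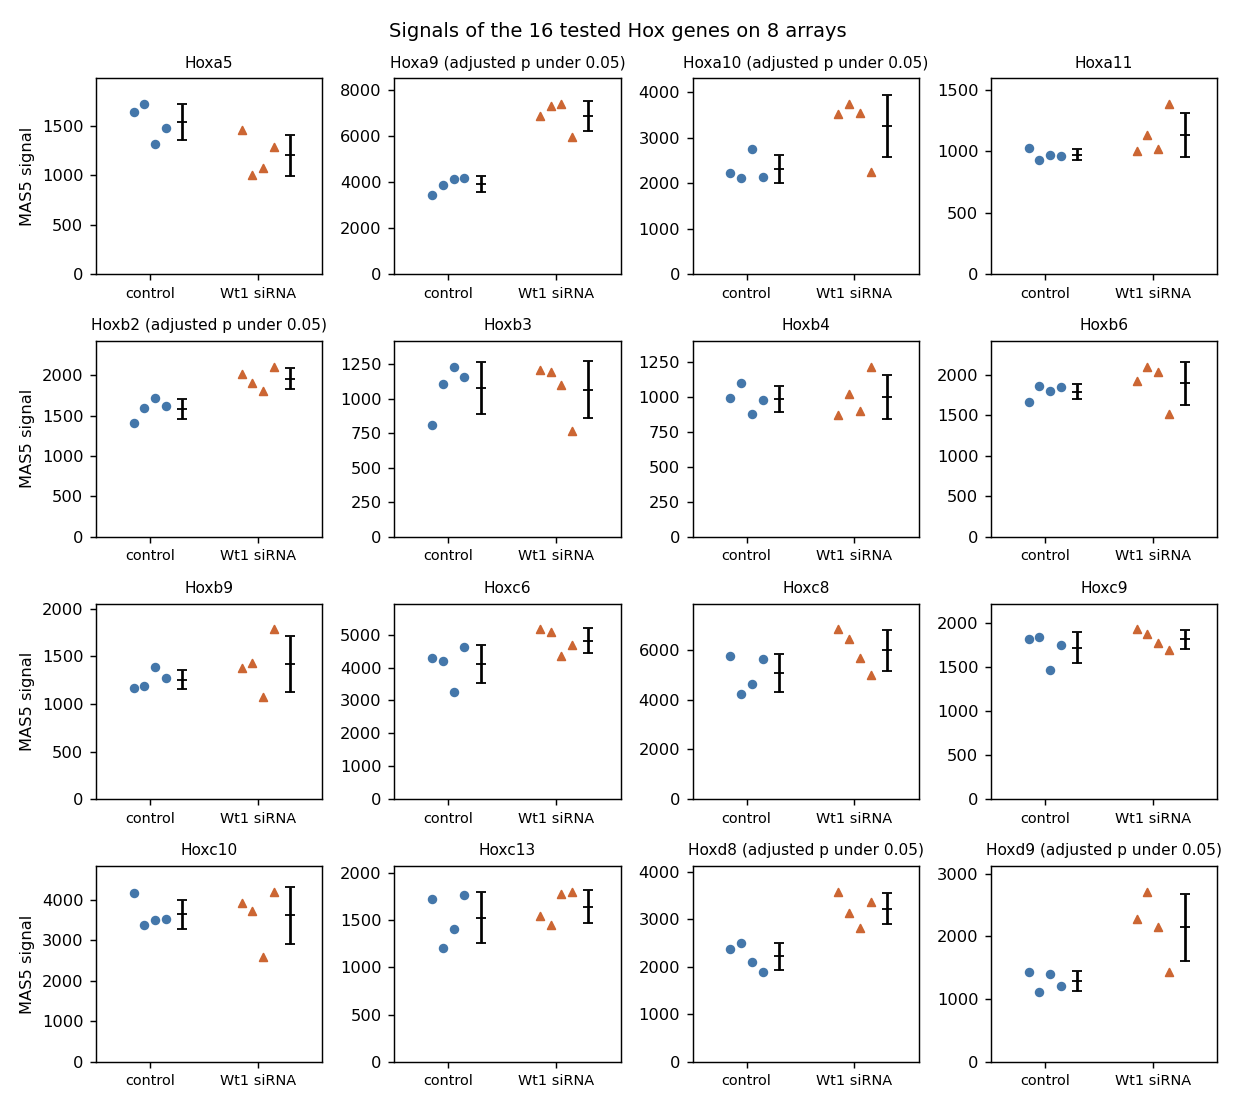
MAS5 signal (linear intensity, axis from 0) of the 16 tested Hox genes on each of the 4 control siRNA and 4 Wt1 siRNA arrays, in replicate order, with the group mean and SD as black bars. The groups are apart for Hoxa9, Hoxb2, Hoxd8 and Hoxd9, while Hoxa10 has Wt1 siRNA array 4 at 2250.8 among the controls.

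Hoxb2, a gene of hindbrain segments and facial motor neurons, was the Hox B gene that rose. Its signals were 1414.4, 1598.2, 1712.8 and 1613.5 on control arrays and 2017.7, 1906.4, 1801.2 and 2108.2 on Wt1 siRNA arrays. All Wt1 siRNA arrays were above all control arrays, by a log2 difference of 0.31 ± 0.10 (1.24-fold, limma adjusted p = 0.0281). The call was lost without control array 1, 2 or 4 or Wt1 siRNA array 1, 2 or 4, at adjusted p-values of 0.0509 to 0.0770. Leaving out control array 2 or 4 or Wt1 siRNA array 1 or 2 lost both Hoxa10 and Hoxb2, so that 3 of the 16 Hox genes were higher. In those fits 15% to 15.4% of all tested genes were higher.

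The other tested Hox B genes did not pass. Hoxb3 differed by -0.018 ± 0.17 and Hoxb4, known from blood stem cells, by 0.015 ± 0.14. Hoxb6 of the trunk and limb bud mesoderm differed by 0.070 ± 0.11 and Hoxb9 of the thoracic trunk by 0.15 ± 0.14. None of the 5 tested Hox C genes passed either. Their differences were 0.24 ± 0.11 for Hoxc6 (limma adjusted p = 0.0861), 0.24 ± 0.12 for Hoxc8, a gene of thoracic vertebrae and motor neurons (adjusted p = 0.124), 0.082 ± 0.10 for Hoxc9, -0.031 ± 0.13 for Hoxc10 of lumbar motor neurons, and 0.12 ± 0.14 for Hoxc13 of hair and nails. Hoxc8 passed without Wt1 siRNA array 4 (0.32, limma adjusted p = 0.0376). The sign of the smallest differences depended on the scaling: centring turned Hoxb3 to 0.090 and Hoxc10 to 0.077, and quantile normalization turned Hoxb3 to 0.031. Hoxa3, Hoxc4 and Hoxc5, above background on all arrays but outside the filter, differed by -0.19 ± 0.23, 0.043 ± 0.28 and 0.020 ± 0.20 with overlapping groups.

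Groups that did not overlap were found for 4 of the 16 tested Hox genes, against 36.3% of all tested genes. Over all probe sets, 4 of the 48 Hox probe sets rose (1 of Hoxa9, both of Hoxd8 and the 1 of Hoxd9) and 0 fell, against 9.65% called among all 45037 probe sets, 4.33% higher and 5.32% lower (limma). At an unadjusted p under 0.05 these counts were 9 higher and 1 lower, against 9.93% and 11.8% of all probe sets. Groups did not overlap for 7 of the 48, against 15.8%.

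**Figure D4:**
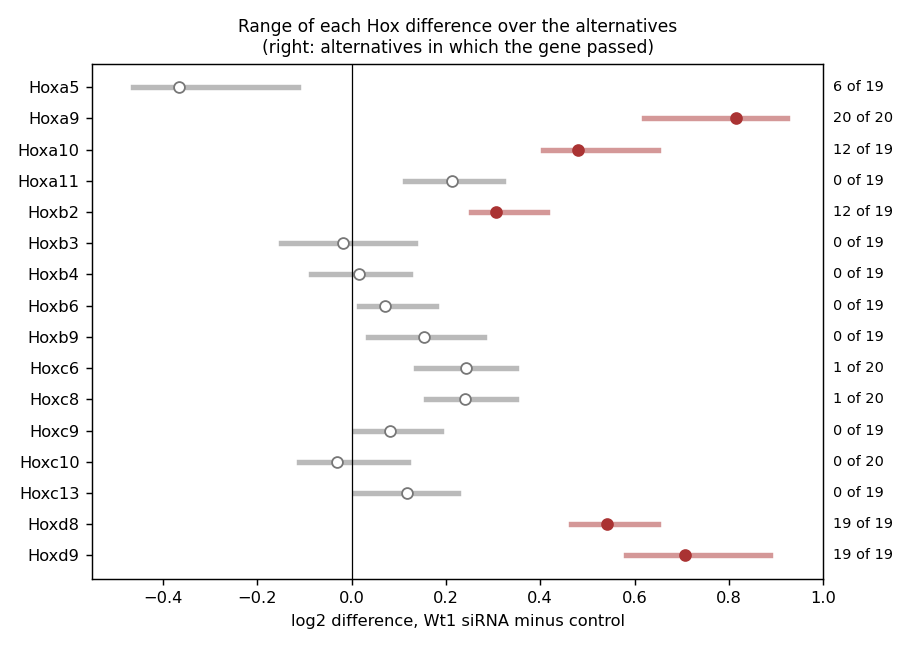
Log2 difference of each tested Hox gene (point) with its range over the alternative settings and left-out arrays (bar), and at the right the number of alternatives in which the gene passed; filled points passed in the reported fit. Hoxa9, Hoxd8 and Hoxd9 passed in all of theirs, Hoxa10 and Hoxb2 in 12 of 19 and Hoxa5 in 6 of 19.

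Within a paralogue group the tested genes could be set against each other in 9 pairs, a comparison chosen after the values had been seen. Each array's log2 signal of 1 gene minus that of its paralogue was compared between the groups with a two-sided exact permutation test, for which 0.0286 is the smallest p that 4 against 4 arrays can give. In group 9, Hoxa9 differed by 0.66 ± 0.22 (SE) more than Hoxb9 and by 0.73 ± 0.14 more than Hoxc9, both with exact p = 0.0286 and an adjusted p of 0.129 over the 9 pairs. Hoxc9 minus Hoxd9 was -0.62 ± 0.21 (exact p = 0.0571), and Hoxa9 minus Hoxd9 was 0.11 ± 0.19 (exact p = 0.60). Hoxa10 minus Hoxc10 was 0.51 ± 0.30 (exact p = 0.143). No pair passed after adjustment, but with 9 pairs at least 6 would have had to reach the smallest p for any to pass, so this says little about the pairs.

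The genes of the TALE cofactor list were mostly above the filter. The list also holds Tgif1 and Tgif2, repressors of the class, and Pbxip1, a Pbx partner outside the class. Of 11 on the array 7 were tested, 1 rose, 2 fell and 4 did not pass, with a median log2 difference of 0.13. Tgif1, a repressor of the class, rose by 0.47 ± 0.09, while Pknox1, also called Prep1, differed by -0.42 ± 0.14 and the Hox partner Pbx3 by -0.35 ± 0.11 (limma adjusted p = 0.000985, 0.0268 and 0.0198). The calls of both falls depended on single arrays: Pknox1 was lost without control array 1 or 4 or Wt1 siRNA array 2 (adjusted p = 0.0714 to 0.0837), and Pbx3 without control array 3 or Wt1 siRNA array 3 (0.0512 and 0.0613). Centring the arrays left neither past the threshold (0.142 and 0.263). The choice of probe set moved both: Pbx3, read by an _s_at probe set, was -0.15 without such probe sets (adjusted p = 0.342), and Pknox1 was -0.18 with the mean over its probe sets (0.358).

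Of the Polycomb and trithorax genes, 35 of 38 on the array were tested, 10 rose, 4 fell and 21 did not pass, with a median of 0.081. Cbx6, of the Polycomb repressive complex 1 family, rose by 0.89 ± 0.10, Mtf2, a partner of Polycomb repressive complex 2, by 0.61 ± 0.07 and the deubiquitinase gene Bap1 by 0.56 ± 0.11 (limma adjusted p = 2.33e-05, 2.77e-05 and 0.00129). Men1, the menin gene of trithorax complexes, fell by 0.48 on the log2 scale (adjusted p = 0.000659), a call lost with the arrays centred (-0.37, 0.0635) or the mean over its probe sets (-0.22, 0.334).

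Genes beside the clusters lay within 5 protein-coding genes of them in RefSeq, and 20 of the 29 on the array were tested. Of these 4 rose, 2 fell and 14 did not pass, with a median of 0.048. Smug1, a DNA glycosylase gene beside Hox C, rose by 0.34 ± 0.10, Snx10 and Hnrnpa2b1 beside Hox A by 0.32 ± 0.07 and 0.29 ± 0.08, and Copz2, a coatomer gene beside Hox B, fell by 0.41 on the log2 scale (limma adjusted p = 0.0177, 0.00435, 0.00989 and 0.0166). Smug1 was not called without control array 2 or Wt1 siRNA array 2 (0.0561 and 0.0510), Copz2 without Wt1 siRNA array 2 or 3 (0.0517 and 0.0523) or with the arrays centred (0.149). The mean over probe sets ended the calls of Snx10 (0.155) and of Hnrnpa2b1, which turned to -0.092 (0.346). Tax1bp1, also beside Hox A, differed by -0.26 ± 0.07 without overlap of the groups (limma adjusted p = 0.00797). Tax1bp1 was not called with the arrays centred or with the mean over probe sets. Of the kidney genes linked to Hox11, 2 of 11 on the array were tested: Osr1 of the early kidney mesenchyme rose from 994 ± 291 to 1623 ± 132 (0.75 ± 0.18, limma adjusted p = 0.00502) and Wnt4 differed by 0.081 ± 0.12. Against these lists too the share over all tested genes is 18.8% higher and 18.5% lower.

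**Figure D5:**
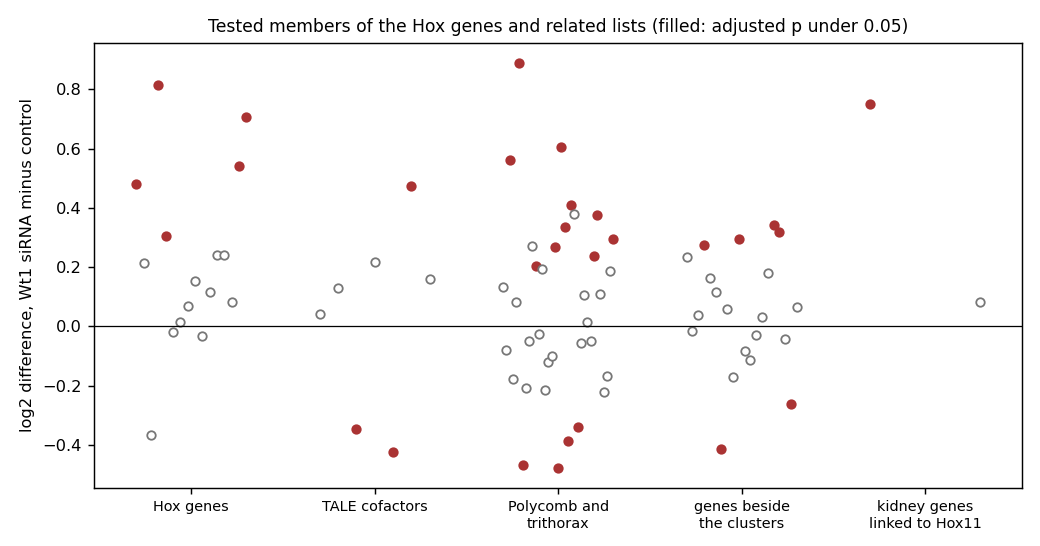
Log2 difference of every tested member of the Hox genes and of 4 related lists, with filled points for those past the adjusted threshold of 0.05. The 5 Hox genes that rose stand at 0.31 to 0.81, and the Polycomb and trithorax list reaches from -0.48 to 0.89.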

How the data were processed

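Total RNA of 8 samples was measured on 1 array each, in groups taken from the sample titles. The deposited values are a linear intensity (signal) per probe set. The submitters' processing notes name MAS5, which combines perfect match and mismatch probes, with its version not given in the sources used here. A mean trimmed by 2% at either end was equal on all arrays, so the authors' values carry a common scaling. Precision is limited by the number of arrays. Control probe sets (64) were left out. Of the others, 34741 had 1 gene symbol updated through its Entrez ID and 204 kept the annotated symbol, 932 had several and 9160 were unnamed here.

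The log2 of the deposited signal was tested with limma 3.58.1 (R 4.3.3, lmFit and eBayes with an intensity trend), two-sided, Wt1 siRNA minus control siRNA, with no further normalization. Each gene was read by its brightest probe set over all arrays and the brighter share of 0.5 was tested (9096 genes, lowest mean signal 664). All 45037 probe sets were tested separately. Folds are the antilog of log2 differences. On simulated data for this comparison (9096 genes, 200 changed) 58% of genes changed by 0.5 and 100% of those changed by 1 on the log2 scale were recovered, and 3 of 161 calls were false. In the real data 37.3% of tested genes passed, a much larger share than was changed in the simulation. The adjustment depends on that share, so these rates are not those of the Hox calls.

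The members, the lists and the filter on the brighter share, which sets the 16 Hox genes tested, were chosen with earlier results of these data known. The text names Wt1, the Hox genes measured and up to 4 members past the threshold of each list, selected by the size of their difference. Wnt4, Tubb3, Tax1bp1, the untested markers given with a difference and the markers given as under or above background are named outside this rule, after their values were seen. The medians over the tested Hox genes, the paralogue pairs and the GC box, TATAAA and Hox-Pbx motifs were chosen after seeing the data. Python 3.11.15 with matplotlib 3.10.9 drew the figures. The alternatives tried were a block on the replicate number, quantile normalization, centring on the array median, 16 or 64 added before log2, testing all genes or a brighter share of 0.25, eBayes robust or without trend, the mean over probe sets, leaving out probe sets with suffix _s_at or _x_at, a threshold of 0.01 and leaving out each array in turn.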

Additional observations from a re-analysis of the deposited data

Results flagged for a closer look

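Of 96 groups of 4 arrays (48 Hox probe sets in 2 groups), 5 held an array far from the other 3, and chance gives about 1 in 20. On the brighter Hoxa10 probe set, Wt1 siRNA array 4 had a signal of 2250.8 while the others had 3525.2 to 3744.5. On the dimmer Hoxa10 probe set, Wt1 siRNA array 1 had 64.4 while the others had 147 to 160.5, all under background. For Hoxc5, control array 1 had 472.5 against 399.6 to 409.2 on the brightest probe set, and control array 3 had 11.7 against 69.1 to 82.7 on a probe set under background. On the dimmest Hoxc6 probe set, Wt1 siRNA array 2 had 199.4 against 339.3 to 368.4.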

How the results depend on the processing

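Over the 16 tested Hox genes, 273 of the values under an alternative kept their direction and their side of the threshold, 14 lost the threshold, 8 newly passed it and 13 changed sign. The count of higher Hox genes, 5 as reported, was 1 (Hoxa9) with the stricter filter, under which 4 Hox genes were tested, 3 at a threshold of 0.01, and 3 to 5 with 1 array left out. Of all tested genes, 24.1% were higher with the stricter filter, 11.6% at 0.01 and 15% to 20% with 1 array left out. The count of lower Hox genes, 0 as reported, was 1 (Hoxa5) with the replicate block, without the intensity trend and with robust eBayes, and 0 to 1 with 1 array left out. Of all tested genes, 18.5% to 18.8% were lower in those 3 fits and 15.5% to 18.4% with 1 array left out. Hoxa5 stayed at -0.37 in those 3 fits and at -0.46 to -0.28 with 1 array left out. The replicate block also brought Hoxc6 past the threshold (0.24, limma adjusted p = 0.0441). Same-numbered arrays had deviation correlations of -0.077 to 0.084, and arrays with different numbers had -0.22 to 0.12. These values show no sign of pairing by number, but 4 arrays per group cannot exclude it. Hoxa10 was 0.58 with the mean over probe sets, remained 0.48 but failed at a threshold of 0.01, and was 0.40 to 0.65 with 1 array left out. Hoxb2 remained 0.31 but failed at 0.01, and was 0.25 to 0.35 with 1 array left out. Hoxc8 was 0.16 to 0.32 with 1 array left out. Signs changed for Hoxb3 (0.031 with quantile normalization, 0.090 with centred arrays, 0.059 with the mean over probe sets, -0.15 to 0.13 with 1 array left out), Hoxb4 (-0.087 with the mean over probe sets, -0.083 to 0.079 with 1 array left out) and Hoxc10 (0.077 with centred arrays, -0.11 to 0.12 with 1 array left out). Higher Hox probe sets, 4 as reported, numbered 7 of 27 in the brighter share of probe sets (where 10.8% of all 22518 tested were higher), 2 without the intensity trend and 3 to 5 with 1 array left out. Of all probe sets, 1.31% were higher without the intensity trend and 2.75% to 4.66% with 1 array left out. Centred arrays left 0 lower TALE cofactors, 0 lower Polycomb and trithorax genes and 0 lower genes beside the clusters. The stricter filter left 1, 2 and 1 of these, and 0 higher kidney genes linked to Hox11, with none tested. The mean over probe sets left 1, 1 and 1, and turned Hnrnpa2b1 to -0.092. Lower TALE cofactors numbered 1 without _s_at and _x_at probe sets and 0 at a threshold of 0.01, where genes beside the clusters numbered 2 higher and 1 lower. With 1 array left out, lower TALE cofactors numbered 1 to 2, and genes beside the clusters 2 to 5 higher and 1 to 2 lower. Over all tested genes the count of calls was 1053 higher and 1132 lower at 0.01, or 11.6% and 12.4%. The share of lower calls over all tested genes was 8.63% with centred arrays and 17% with the stricter filter. That share was 13.5% with the mean over probe sets and 17.9% without _s_at and _x_at probe sets. The cause of these changes was not tested. Signals near background limit what can be read: 13 of the 33 Hox genes were not above it on every array.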

Other observations

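Antisense transcripts of the Hox clusters are not members of the Hox gene set, and their probe sets are reported as values. Hoxd3os1 had a signal of 1043 ± 136 on control arrays and 826 ± 96.9 on Wt1 siRNA arrays on its brighter probe set (SD, n = 4 each), a log2 difference of -0.34 ± 0.14 with overlapping groups (limma adjusted p over all probe sets 0.193). Hoxb5os had 753 ± 179 and 724 ± 43.0, and Hoxa11os had 441 ± 33.5 and 442 ± 68.5 on its brighter probe set, with log2 differences of -0.024 ± 0.18 and -0.0092 ± 0.19.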
